A study of Sus scrofa with 34 samples.

Results

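Messenger RNA of 10 genes that mark the stem cells of the intestinal crypt or hold back Wnt signalling was followed in the ileum and liver of weaned piglets. The genes were chosen by name as known crypt stem cell markers (LGR5, OLFM4, ASCL2, SMOC2, EPHB2 and CD44) and Wnt feedback genes (NOTUM, AXIN2, RNF43 and ZNRF3), and they are 10 of the 25880 genes in the count tables. The choice was made with earlier results of these data known. After the filter on low counts, 9 of the 10 could be tested in the ileum (not ASCL2), 8 in the liver (not ASCL2 or OLFM4) and 9 in the fit of both tissues together (not ASCL2).

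The epithelium of the ileum is renewed from stem cells at the base of the crypts, which depend on Wnt proteins from neighbouring cells. R-spondins bind LGR receptors and keep the ubiquitin ligases RNF43 and ZNRF3 from removing Frizzled, the Wnt receptor, while AXIN2, a scaffold of the complex that degrades beta-catenin, and NOTUM, a secreted enzyme that strips the lipid from Wnt proteins, are switched on by the pathway and dampen it. In the liver, Wnt proteins from the endothelium of the central vein maintain the pericentral hepatocytes, and several of the same feedback genes are known there as targets of the pathway.

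The piglets were crossbred (Landrace × Large White sows and Pietrain boars) and were sampled on day 28 of feeding. Control pigs received the basal diet, PFA pigs the same diet with a phytogenic feed additive (Digestarom, based on essential oils, with oregano and caraway oils, carvacrol, methyl salicylate and menthol), OO pigs a diet with oxidized rapeseed oil, and OO + PFA pigs both. The ileum was taken from 5 control and 5 PFA pigs, and the liver from 6 pigs of each of the 4 diets, the 10 ileum pigs among them. The diets without oxidized oil held no matching amount of fresh oil, and the diets with it had more calculated energy. Effects of oxidation, of added fat and of energy therefore cannot be told apart. All pigs of a diet shared 1 pen, and an effect of the pen cannot be told apart from that of its diet. Both organs were sampled as whole tissue, in which fewer cells of a type and less RNA per cell cannot be told apart. Pigs are named by diet (C, P, OO, and OP for OO + PFA) and the number in the library titles.

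Between 18772230 and 24338165 read pairs per ileum library and between 18738055 and 42446834 per liver library were counted on genes, and levels are given as CPM (counts relative to library size, scaled by the TMM method of edgeR), with the SD over pigs. Markers of enterocytes, goblet cells and enteroendocrine cells were abundant in every ileum library, and hepatocyte markers summed to at least 97660 CPM in every liver library. The ileum library of C-80 held a summed level of 6 B cell markers of 545.1 CPM, where the other controls lay from 11.2 CPM up with a median of all 5 of 14.6 CPM, and the PFA pigs reached at most 19.4 CPM. Among the PFA ileum libraries P-134 stood apart for several of the genes described below. Libraries also differed in how strongly genes rich in G and C were represented. A GC index was computed per library as the median log2 CPM of the genes richest in G and C (at least 63.1% in the ileum and 63.3% in the liver) less that of the poorest (at most 39.9% and 40.0%), each gene taken relative to its mean over the libraries of the tissue. It ranged from -1.04 (P-138) to 1.08 (P-134) in the ileum and had a mean of 0.22 ± 0.54 (SD, n = 5) in the control and -0.21 ± 0.78 (SD, n = 5) in the PFA group. One OO + PFA liver library, from pig 77, was left out of the fits, as the study left it out for suspected RNA degradation.

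On Sscrofa11.1 (RefSeq annotation) NOTUM lies at chr12:1033814-1044412 on the plus strand, with no other gene overlapping it. AXIN2 lies on the same chromosome at chr12:12311293-12343207 on the minus strand, and shares 55 bp of exon with CEP112, a gene of the same strand whose level was at a median of 2.67 CPM in the ileum and 1.48 CPM in the liver. RNF43 is on this chromosome too (chr12:34631574-34695021, minus strand), and ZNRF3 lies at chr14:46092000-46241327 on the plus strand. LGR5 (chr5:35463257-35595234, plus strand) overlaps TSPAN8 of the opposite strand within its introns, with 0 bp of shared exon. OLFM4 lies at chr11:26252948-26375531 (plus), ASCL2 at chr2:1558459-1560112 (minus), CD44 at chr2:25788699-25884209 (minus), SMOC2 at chr1:1193163-1332739 (minus) and EPHB2 at chr6:80649098-80849979 (plus).

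TCF and LEF factors, which carry the Wnt signal to DNA, bind a core of the letters CTTTGA. The windows from 250 bases before to 50 bases after the start of each RefSeq gene were searched for it on both strands, and 12.3% of 19569 protein-coding genes held it. Of the 10 members, AXIN2 and OLFM4 held 1 match each. The AXIN2 match begins 16 bases before the start and continues as CTTTGAT, which 2.44% of the windows held. The OLFM4 match lies 215 bases before the start and is read on the opposite strand. The windows of AXIN2 (chr12:12343158-12343457, minus strand) and NOTUM (chr12:1033564-1033863, plus strand) are shown, 5′ to 3′ along each gene, since these are the feedback genes with a match beside the start and with the largest difference in the ileum. Capitals mark CTTTGA.
AXIN2: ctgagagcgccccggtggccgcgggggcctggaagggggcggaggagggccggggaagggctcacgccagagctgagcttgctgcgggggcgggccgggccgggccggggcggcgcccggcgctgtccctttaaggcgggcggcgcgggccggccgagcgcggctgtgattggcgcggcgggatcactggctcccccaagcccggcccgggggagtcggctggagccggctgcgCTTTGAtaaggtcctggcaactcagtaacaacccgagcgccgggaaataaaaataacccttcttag
NOTUM: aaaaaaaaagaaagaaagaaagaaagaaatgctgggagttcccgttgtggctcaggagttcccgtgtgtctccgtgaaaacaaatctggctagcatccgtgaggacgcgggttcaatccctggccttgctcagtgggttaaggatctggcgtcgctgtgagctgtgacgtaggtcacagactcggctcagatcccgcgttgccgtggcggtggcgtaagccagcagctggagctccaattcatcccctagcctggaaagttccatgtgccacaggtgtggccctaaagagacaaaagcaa
The NOTUM window holds no match to these letters.

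In the control ileum the members spanned a wide range per kb of exon. OLFM4, a secreted glycoprotein of crypt base cells, stood highest with 735 ± 231 CPM per kb (SD, n = 5). CD44, a receptor for hyaluronan, followed with 15.7 ± 2.54 CPM per kb and SMOC2, a secreted matrix-binding protein of stem cells, with 13.5 ± 3.08 CPM per kb, and the ranges of these 2 overlapped. RNF43 was at 6.24 ± 1.34 CPM per kb, below every SMOC2 value and above every AXIN2 value. AXIN2 (3.54 ± 0.71 CPM per kb) and EPHB2 (2.46 ± 0.67 CPM per kb), the receptor that keeps progenitors in place along the crypt, overlapped in range. LGR5, the R-spondin receptor that marks the stem cells themselves, was at 1.35 ± 0.33 CPM per kb and ZNRF3 at 1.28 ± 0.40 CPM per kb, again overlapping. NOTUM (0.378 ± 0.105 CPM per kb) and ASCL2 (0.35 ± 0.14 CPM per kb), the transcription factor of stem cell identity, were the lowest and overlapped each other. In the PFA ileum the order was the same except that NOTUM, at 0.113 ± 0.051 CPM per kb, came below ASCL2.

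NOTUM was the member with the largest difference between the PFA and control ileum. The 5 control pigs measured 1.76, 1.75, 1.89, 2.04 and 0.858 CPM (C-71, C-80, C-92, C-100 and C-110), from 16 to 46 counts per library. The 5 PFA pigs measured 0.299, 0.475, 0.329, 0.864 and 0.523 CPM (P-75, P-95, P-107, P-134 and P-138), from 6 to 21 counts per library. All 5 PFA pigs lay below the control mean, and the groups touched only where the lowest control, C-110, fell just under the highest PFA pig, P-134. The means were 1.66 ± 0.46 CPM (SD, n = 5) in the control and 0.498 ± 0.226 CPM (SD, n = 5) in the PFA group, and the log2 fold change was -1.71 (standard error 0.34, 95% interval -2.46 to -0.96), or 3.27-fold lower with PFA. This difference did not pass the test over all genes (unadjusted p = 0.000353, adjusted p = 0.991, edgeR, quasi-likelihood test, Benjamini-Hochberg adjustment). NOTUM ranked 2 of 14300 genes by p. The study had itself named NOTUM as differentially expressed between these ileum groups, so this rank is no independent support.

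The 2 groups overlapped for all 10 members, where 0.559% of the genes tested had groups that did not overlap. No member was called in this comparison, and neither was any other gene (0% of 14300 tested, with 401 genes, or 2.80%, at an unadjusted p under 0.05, NOTUM the only member among them). DESeq2, on the genes that pass the filter, gave NOTUM an adjusted p of 0.0568 and called 4 genes. DESeq2 without that filter, a setting chosen after seeing the data, gave NOTUM an adjusted p of 0.0399 and called 5 genes, and over the alternatives run on all 10 pigs the log2 fold change lay between -1.73 and -1.49. The GC index is one measure that differed along with it. With the index as a term the log2 fold change of NOTUM was -1.49 (adjusted p = 0.999), and without C-80 and P-134 it was -2.03 (adjusted p = 0.473). C-110, the control with little NOTUM, had the lowest GC index of the controls (-0.65) and the highest summed smooth muscle markers (8313 CPM, with a control median of 5367 CPM) and fibroblast markers (10320 CPM, with a control median of 5653 CPM). The part of these in the NOTUM level was not tested.

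**Figure D1:**
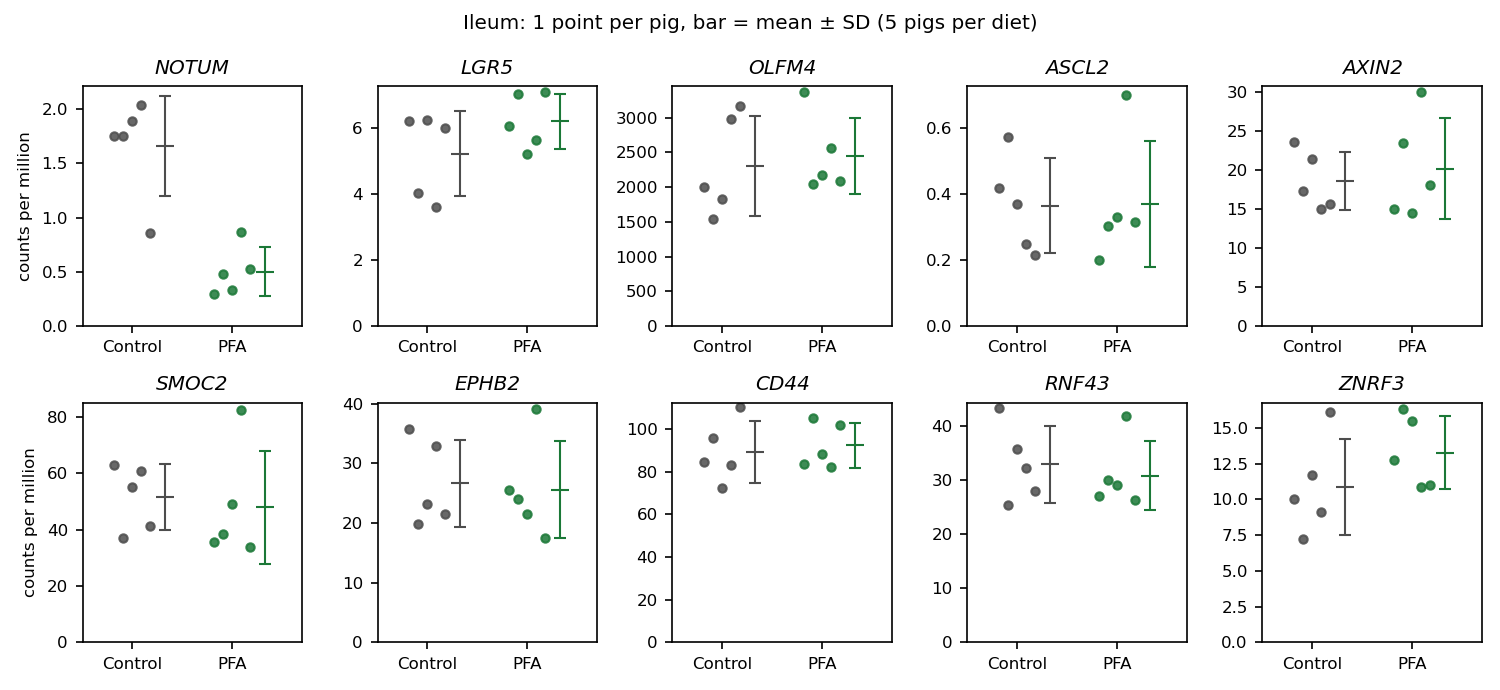
CPM of the 10 members in the ileum, with 1 point per pig for 5 control and 5 PFA pigs and bars for the mean ± SD on axes that start at 0. NOTUM is at 0.299 to 0.864 CPM in the PFA pigs and at 0.858 to 2.04 CPM in the control pigs, while the groups of the other 9 members overlap widely.

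The other Wnt feedback genes did not pass the test and lay close together in the 2 groups. AXIN2 was at 18.6 ± 3.75 CPM (SD, n = 5) in the control and 20.2 ± 6.52 CPM (SD, n = 5) in the PFA group, with a log2 fold change of 0.12 (95% interval -0.36 to 0.60). The controls ran from 15.0 to 23.6 CPM and the PFA pigs from 14.5 to 30.0 CPM, with P-134 at the top. RNF43 was at 32.99 ± 7.11 CPM in the control and 30.9 ± 6.31 CPM in the PFA group (log2 fold change -0.09, 95% interval -0.48 to 0.29). ZNRF3, its paralogue, was at 10.8 ± 3.35 CPM in the control and 13.3 ± 2.52 CPM in the PFA group (log2 fold change 0.29, 95% interval -0.19 to 0.78), and all 5 PFA pigs lay above the control mean. For these 3 genes the adjusted p was 0.991.

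The stem cell markers did not pass the test either. LGR5 measured 6.23, 4.03, 6.25, 3.62 and 6.01 CPM in the control pigs (C-71, C-80, C-92, C-100 and C-110) and 6.07, 7.04, 5.21, 5.64 and 7.11 CPM in the PFA pigs (P-75, P-95, P-107, P-134 and P-138). The PFA pigs stood inside or just above the range of the controls, 4 of the 5 of them above the control mean. The log2 fold change of LGR5 was 0.25 (standard error 0.21, 95% interval -0.20 to 0.70, adjusted p = 0.991). OLFM4, with 34818 to 67663 counts per library the most precisely counted member, was at 2301 ± 723.5 CPM in the control and 2450 ± 552.6 CPM in the PFA group, and its log2 fold change was 0.09 (95% interval -0.40 to 0.58). SMOC2 was at 51.5 ± 11.7 CPM in the control and 48.0 ± 20.2 CPM in the PFA group (log2 fold change -0.10, 95% interval -0.66 to 0.45). EPHB2 was at 26.7 ± 7.25 CPM and 25.6 ± 8.16 CPM (log2 fold change -0.06, 95% interval -0.57 to 0.45). CD44 varied least among the pigs, at 89.2 ± 14.5 CPM and 92.2 ± 10.6 CPM (log2 fold change 0.05, 95% interval -0.23 to 0.33). ASCL2 had 4 to 17 counts per library and was not tested, at 0.364 ± 0.143 CPM in the control and 0.369 ± 0.192 CPM in the PFA group. Of the 9 members tested, 5 were higher and 4 lower in the PFA group and their median log2 fold change was 0.05, where 53.3% of all genes tested were higher and the median over all of them was 0.02.

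**Figure D2:**
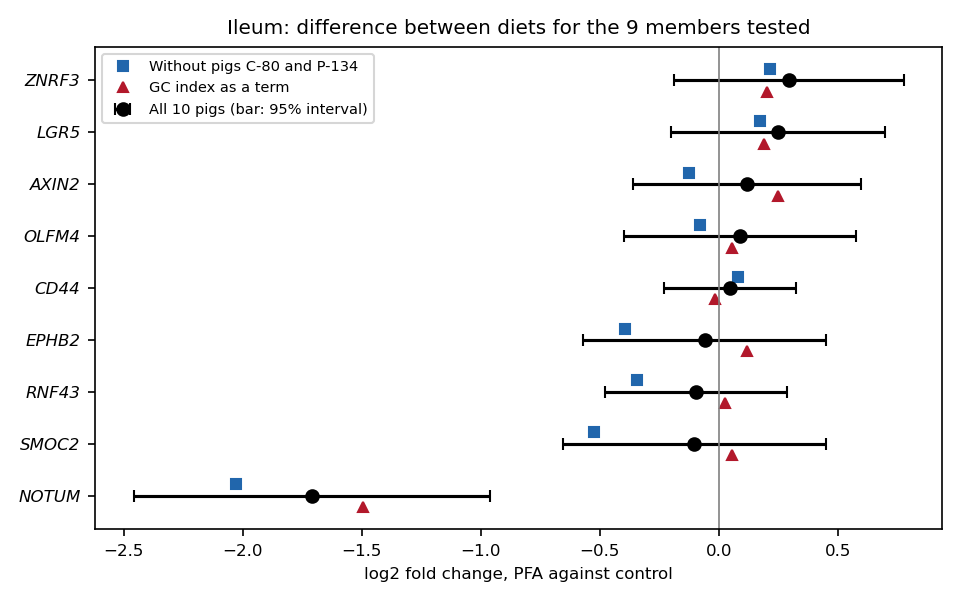
Log2 fold change of PFA against control in the ileum for the 9 members tested, as black points with 95% intervals for all 10 pigs, blue squares for the fit without pigs C-80 and P-134, and red triangles for the fit with the GC index as a term. NOTUM lies at -1.71 with an interval of -2.46 to -0.96, and the intervals of the other 8 members include 0.

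Several of the differences near 0 changed sign with the pigs and terms in the fit. Without C-80 and P-134 the log2 fold change was -0.08 for OLFM4 and -0.13 for AXIN2, and with the GC index as a term it was 0.06 for SMOC2, 0.12 for EPHB2, 0.03 for RNF43 and -0.02 for CD44. P-134 had the highest AXIN2 (30.0 CPM), SMOC2 (82.5 CPM), EPHB2 (39.1 CPM) and ASCL2 (0.700 CPM) of the 10 pigs and the highest GC index, and C-80, with the B cell markers, the lowest OLFM4 (1541 CPM), RNF43 (25.4 CPM) and ZNRF3 (7.23 CPM).

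Across the ileum pigs, 45 pairs of members were compared after each value was taken as the deviation from the mean of its diet. No pair passed after adjustment by Pearson's r (exact permutation test within diets, two-sided, 14400 permutations, smallest adjusted p = 0.0813). The strongest relation was between SMOC2 and RNF43, with r = 0.89 (exact permutation p = 0.00181, adjusted to 0.0813). Spearman's rho of this pair was 0.94 (exact permutation p = 0.000764, adjusted to 0.0344). Leaving out C-80 and P-134, the pigs farthest from the median of SMOC2, gave r = 0.79. SMOC2 and EPHB2 had r = 0.85 (exact permutation p = 0.00576, adjusted p = 0.122) and EPHB2 and RNF43 r = 0.84 (exact permutation p = 0.0108, adjusted p = 0.122). The relation of these genes and NOTUM to the GC index across pigs was tested as well. Within diets r with the index was 0.79 for SMOC2, 0.81 for EPHB2, 0.73 for RNF43 and 0.74 for NOTUM, none of which passed after adjustment over the 9 members (adjusted p = 0.077 for each of them, permutation test). Without the 2 pigs farthest from the median of the index, r fell to 0.27 for NOTUM.

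The wider pathway in the ileum was read from lists of known genes. None of the 8 Wnt ligands tested, 2 genes of Wnt export, 4 R-spondins and related LGR receptors, 13 Wnt receptors, 12 secreted or membrane antagonists, 18 genes of the destruction complex and TCF/LEF factors, 14 other crypt Wnt targets, 15 other crypt markers or 11 proliferation genes was called, and none had an unadjusted p under 0.05. The median log2 fold changes of these lists ran from -0.11 (R-spondins and LGR receptors) to 0.15 (antagonists, of which 10 of 12 were higher). The member of the R-spondin group with the smallest p was RSPO2, a ligand of LGR5, at 0.742 ± 0.323 CPM in the control and 0.400 ± 0.166 CPM in the PFA group (log2 fold change -0.86, adjusted p = 0.991). WNT2 was at 0.649 ± 0.284 CPM and 1.03 ± 0.345 CPM, and WIF1, a secreted Wnt inhibitor, at 1.37 ± 0.454 CPM and 2.04 ± 0.707 CPM. TCF7L2, the main TCF factor of the gut, was at 46.7 ± 7.10 CPM and 40.7 ± 1.702 CPM, and CTNNB1, beta-catenin, at 435 ± 39.3 CPM and 484 ± 51.1 CPM. CDK1, a kinase of dividing cells, was at 38.2 ± 10.4 CPM and 50.7 ± 9.27 CPM. The Notch ligand DLL4 was at 17.3 ± 7.001 CPM and 12.2 ± 4.48 CPM, and PROX1, a transcription factor, at 7.38 ± 1.81 CPM and 5.94 ± 0.986 CPM.

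Markers of the cell types in the ileum stood beside these values as follows. Of 9 enterocyte markers 2 were higher and 7 lower with PFA, with summed levels of 18750 to 29020 CPM in the control and 13760 to 26030 CPM in the PFA pigs, and FABP6, the ileal bile acid binding protein, was at 6433 ± 2652 CPM and 3721 ± 1379 CPM (unadjusted p = 0.0406, adjusted p = 0.991, edgeR). Of 5 goblet cell markers 1 was higher and 4 lower, and they summed to 1957 to 2545 CPM in the control and 1839 to 3005 CPM in the PFA pigs. AGR2, a chaperone of mucin folding, was at 316 ± 39.9 CPM and 438 ± 65.5 CPM (unadjusted p = 0.00387, adjusted p = 0.991, edgeR). The 5 B cell markers tested were all lower in the PFA group (median log2 fold change -3.18), and only C-80 held high values. None of these lists had a called gene, and their part in the NOTUM level was not tested.

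In the liver NOTUM had the highest mean level per kb of exon in each diet, but its range overlapped that of CD44 in the control, PFA and OO groups. NOTUM was above CD44 in 2 of 6 control, 5 of 6 PFA, 4 of 6 OO and 5 of 5 OO + PFA pigs. In the control the medians were 4.604 CPM per kb for NOTUM and 4.6 CPM per kb for CD44, and C-80 reached 11.66 CPM per kb of NOTUM. OLFM4 had 0 to 2 counts and ASCL2 0 or 1 count in each of the 24 liver libraries, below the floor of 3 counts. EPHB2 was barely counted as well, with 1 to 27 counts per library. The remaining 7 members were all well above that floor.

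Across the 4 diets no member was called in the liver, where 3.66% of 13831 genes were. The control pigs had NOTUM at 15.3 to 51.2 CPM (median 20.2 CPM) and the PFA pigs at 15.3 to 47.4 CPM (median 28.8 CPM). The OO pigs ran from 12.7 to 73.2 CPM (median 37.7 CPM), with 3 pigs at or below 25.0 CPM and 3 at or above 50.4 CPM. The 5 OO + PFA pigs measured 61.1, 50.9, 48.6, 49.7 and 62.8 CPM (OP-79, OP-98, OP-105, OP-126 and OP-137) and lay close together above the other 5 controls, with C-80 (51.2 CPM) among them. The means were 26.0 ± 13.8 CPM (SD, n = 6) in the control, 29.7 ± 12.1 CPM (SD, n = 6) in the PFA, 39.8 ± 26.6 CPM (SD, n = 6) in the OO and 54.6 ± 6.78 CPM (SD, n = 5) in the OO + PFA group. For OO + PFA against control the log2 fold change was 1.07 (standard error 0.41, 95% interval 0.23 to 1.91), which did not pass the test (adjusted p = 0.115, edgeR), in a comparison where 5.08% of genes were called. It was called in the fit of all 24 libraries (adjusted p = 0.0438), in the fit of these 2 diets alone (adjusted p = 0.0199) and without C-80 (log2 fold change 1.38, adjusted p = 0.04995).

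Liver NOTUM followed the GC index of the libraries closely. Within diets r was 0.93 over 23 libraries and Spearman's rho 0.93 (permutation test with 100000 draws, p = 1e-05, which is the lowest value they allow, adjusted p = 8e-05 over 8 members), and r was 0.90 without the 2 pigs farthest from the median of the index. Within the libraries titled PigLiv r was 0.94 and within those titled PL it was 0.97. The index had a mean of -0.28 ± 0.41 (SD, n = 6) in the control, -0.38 ± 0.60 (SD, n = 6) in the PFA, 0.10 ± 1.09 (SD, n = 6) in the OO and 0.70 ± 0.43 (SD, n = 5) in the OO + PFA group, and NOTUM exons are 61.2% G and C, above 83.4% of the liver genes with a value. Within the PigLiv libraries the log2 fold change of NOTUM was 1.34 for OO and 1.54 for OO + PFA against control, and within the PL libraries it was -0.35 and 0.57. With the index as a term the log2 fold change of NOTUM was 0.19 for OO + PFA against control (adjusted p = 0.612) and -0.01 for OO against control (0.61 without the term). None of the other 7 members passed in its relation to the index, SMOC2 (r = 0.55), AXIN2 (r = 0.41) and RNF43 (r = 0.37) coming nearest (adjusted p = 0.0646 for each, permutation test).

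**Figure D3:**
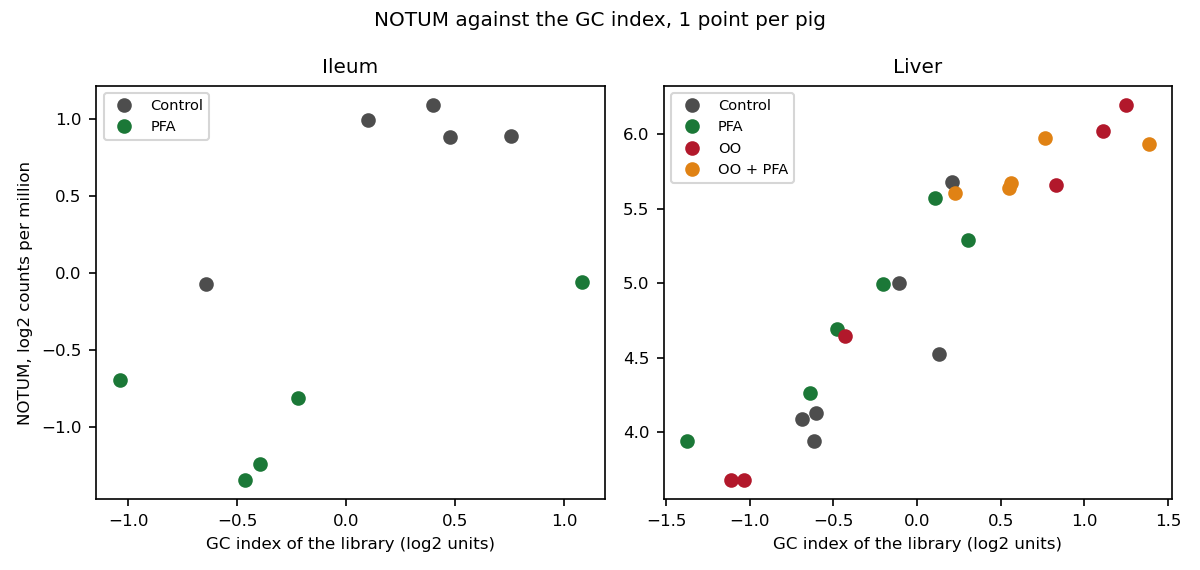
NOTUM as log2 CPM (vertical axis) against the GC index of the library in log2 units (horizontal axis), for 10 ileum and 23 liver libraries, with 1 point per pig coloured by diet. In the liver the points of all 4 diets lie along 1 line (r = 0.93 within diets), and in the ileum 4 of the 5 control points lie above all PFA points.

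LGR5 in the liver had lower mean levels in both diets with oxidized oil than in the control, without passing the test. The control pigs had 3.01 to 13.7 CPM (median 6.83 CPM) and the PFA pigs 2.96 to 7.16 CPM (median 4.40 CPM). The OO pigs had 1.58 to 4.37 CPM (median 3.23 CPM) and the OO + PFA pigs 1.54 to 5.62 CPM (median 3.40 CPM). The lowest control, C-92, lay inside the range of the OO pigs and every other control above it. For OO against control the log2 fold change was -1.19 (standard error 0.33, 95% interval -1.88 to -0.51), or 2.28-fold lower, and it missed the threshold narrowly (adjusted p = 0.0518, edgeR), in a comparison where 2.71% of genes were called. LGR5 was called here by DESeq2 (adjusted p = 0.00917), with RLE size factors (0.0457), with at least 10 counts required in every library (0.0469), with a term for the form of the title (0.0481) and with the GC index as a term (0.0326, log2 fold change -1.17). Without C-80, the control with the highest LGR5 (13.7 CPM), the log2 fold change was -0.88 (adjusted p = 0.123). Within the PigLiv libraries it was -0.97 and within the PL libraries -1.61. For OO + PFA against control it was -1.03 (adjusted p = 0.0788), with -0.44 within the PigLiv libraries and -2.75 within the PL libraries, which hold 1 OO + PFA pig. Over all 23 libraries the PFA and OO effects on LGR5 did not interact detectably (interaction 0.75, 95% interval -0.24 to 1.73, adjusted p = 0.492).

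None of the remaining members was called in any of the 5 comparisons between diets. Of the 8 members tested, 3 were higher with PFA than control (53.8% of all genes were), 4 with OO (57.7%) and 4 with OO + PFA (48.8%), and 0% of genes were called for OO + PFA against OO and for the interaction. AXIN2 was at 8.01 ± 2.66 CPM in the control, 5.81 ± 1.08 CPM in the PFA, 7.84 ± 1.01 CPM in the OO and 8.13 ± 1.11 CPM in the OO + PFA group, with a log2 fold change of -0.46 for PFA against control (adjusted p = 0.381), where 0% of genes were called. Within the PigLiv libraries it was -0.36 and within the PL libraries -0.72. SMOC2 was at 7.46 ± 2.29 CPM in the control, 10.4 ± 2.38 CPM in the PFA, 10.96 ± 4.09 CPM in the OO and 11.7 ± 2.27 CPM in the OO + PFA group, with log2 fold changes against control of 0.48, 0.55 and 0.64 (adjusted p = 0.45, 0.168 and 0.108, edgeR). Against control, SMOC2 was at 0.28, 0.58 and 0.62 within the PigLiv libraries and at 0.82, 0.64 and 0.48 within the PL libraries. ZNRF3 was at 27.3 ± 12.3 CPM in the control and 19.5 ± 2.02 CPM in the OO group (log2 fold change -0.49, adjusted p = 0.151, with -0.25 within the PigLiv and -0.91 within the PL libraries), and at 22.8 ± 5.06 CPM and 23.9 ± 2.37 CPM in the PFA and OO + PFA groups. RNF43 ran from 15.7 ± 3.62 CPM in the PFA to 23.8 ± 16.6 CPM in the control group, and CD44 from 22.6 ± 5.07 CPM in the PFA to 28.4 ± 4.80 CPM in the OO group. C-80 held the highest RNF43 (56.8 CPM), ZNRF3 (51.8 CPM), AXIN2 (12.7 CPM) and LGR5 (13.7 CPM) of all 23 liver libraries. That library also had the most pairs on no gene, at 23.5 for every 100 counted on genes, with C-85 next at 18.5. Its ambiguous pairs (4.44 per 100) were exceeded only in the library of pig 77 (4.81), which was left out. The part of these in its levels was not tested. The 4 comparisons against control or OO share pigs, so their values are not independent.

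**Figure D4:**
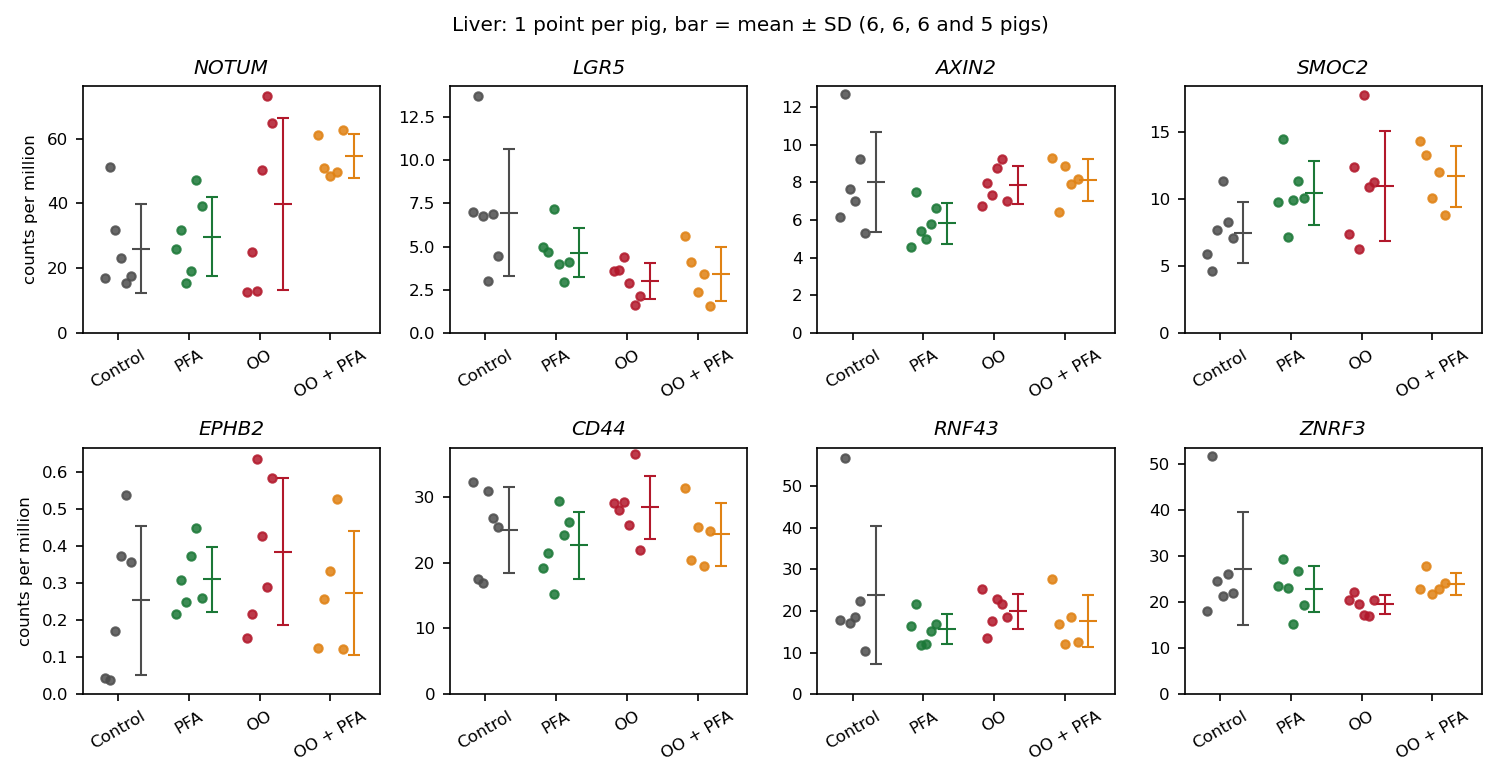
CPM of the 8 members tested in the liver, with 1 point per pig for 6 control, 6 PFA, 6 OO and 5 OO + PFA pigs and bars for the mean ± SD on axes that start at 0. NOTUM lies between 48.6 and 62.8 CPM in the OO + PFA pigs and between 12.7 and 73.2 CPM in the OO pigs, and 1 control pig, C-80, stands apart for LGR5, RNF43 and ZNRF3.

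Genes around the members in the liver were taken from the same lists, and their counts stand beside 3.66% of all genes called across the diets, 2.71% for OO against control, and 4.09% called higher and 0.991% called lower for OO + PFA against control. Of 14 other Wnt targets only SP5, a transcription factor induced by beta-catenin, was called across the 4 diets (adjusted p = 0.0416, edgeR), at 1.07 ± 0.61 CPM in the control, 0.73 ± 0.28 CPM in the PFA, 1.99 ± 0.73 CPM in the OO and 1.97 ± 0.47 CPM in the OO + PFA group. Of 9 pericentral genes CYP2E1, an oxidase of the pericentral hepatocytes, was called (adjusted p = 0.0336), at 3812 ± 471.6 CPM in the control and 2482 ± 368 CPM in the OO group (log2 fold change -0.62, adjusted p = 0.0211). The list as a whole did not follow it, with 5 genes higher and 4 lower with OO and a median log2 fold change of 0.05. Of 8 periportal genes PCK1, the rate-limiting enzyme of gluconeogenesis, and ARG1, the last enzyme of the urea cycle, were called across the diets, and both were higher in OO + PFA than in control (log2 fold changes 1.42 and 0.97, adjusted p = 0.0351 and 0.0189). Of the 8 periportal genes 4 were higher and 4 lower in OO + PFA than in control, with a median log2 fold change of -0.005. The other comparisons were less even, without a called gene of this list. Against control 7 were lower with PFA (median -0.40) and 6 with OO (-0.30). In OO + PFA against OO 6 were higher (0.34), and in the interaction 7 (0.74). Of all genes 53.8%, 57.7%, 46.5% and 45.0% were higher, in the same order. Among 14 Wnt receptors FZD1, FZD8 and LRP5 were called higher in OO + PFA than in control (log2 fold changes 0.52, 2.22 and 1.32), as were DVL1, the adaptor beneath Frizzled, 1 of 18 genes of the core pathway (log2 fold change 2.21), and NOTCH1, a Notch receptor, 1 of 14 other crypt markers (log2 fold change 1.91). In that comparison 8 of the 14 receptors, 8 of the 18 core genes and 10 of the 14 crypt markers were higher. Of the cell type markers, the gene with the symbol SERPINA1, 1 of 7 hepatocyte markers tested, was called across the diets (adjusted p = 0.0478). It was called lower with OO (log2 fold change -1.25, adjusted p = 0.015), from low levels of 3.09 ± 0.96 CPM in the control and 1.29 ± 0.38 CPM in the OO group. The hepatocyte markers together summed to at least 97660 CPM in every liver library, and 3 of the 7 were higher and 4 lower with OO. APOA4, an apolipoprotein and 1 of 4 enterocyte markers tested, was called across the diets (adjusted p = 0.0089) and higher with OO + PFA (log2 fold change 3.32, adjusted p = 0.0304), in a group where the summed enterocyte markers of OP-137 (686.5 CPM) stood far above those of the other pigs. The mean GC index was higher in the OO + PFA than in the control libraries, and its part in these differences was not tested.

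The 10 pigs with both tissues allowed ileum and liver to be compared within 20 libraries scaled together. Most genes differed (78.1% of 14982 called, 40.6% higher and 37.5% lower in the ileum), and 4 members were called higher and 3 lower in the ileum. NOTUM differed most among those counted in both tissues, with 0.732 ± 0.480 CPM in the ileum and 40.4 ± 19.9 CPM in the liver (SD, n = 10), which is 63.9-fold lower in the ileum (log2 fold change -6.00, standard error 0.31) and lower in 10 of 10 pigs. ZNRF3 was 4.53-fold lower in the ileum (8.16 ± 2.06 and 37.0 ± 14.9 CPM) and LGR5 2.14-fold lower (3.87 ± 0.76 and 8.47 ± 4.63 CPM), each in 10 of 10 pigs on this joint scale. Scaled within each tissue, mean LGR5 was 5.23 (control) and 6.21 CPM (PFA) in the ileum. In the liver it was 6.97 and 4.65 CPM on that scale (6 pigs per diet). The direction for LGR5 thus depends on the scaling between the tissues, and so does that for RNF43. Mean RNF43 scaled within each tissue was 32.99 (control) and 30.9 CPM (PFA) in the ileum. It was 23.8 and 15.7 CPM in the liver on that scale. On the joint scale RNF43 was lower in the ileum (21.6 and 29.7 CPM). The sizes of the other folds also belong to the joint scale. Mean CD44 of the controls scaled within each tissue was 89.2 CPM in the ileum and 24.99 CPM in the liver. OLFM4 was at 1608 ± 404 CPM in the ileum and at 0 or 1 count in each of the 10 livers, at least 9900-fold higher against a floor of 3 counts per liver library. EPHB2 was 39.4-fold higher in the ileum (17.7 ± 4.86 and 0.439 ± 0.234 CPM), SMOC2 2.59-fold (33.7 ± 10.5 and 13.2 ± 4.46 CPM) and CD44 1.69-fold (61.5 ± 8.09 and 36.4 ± 7.90 CPM). AXIN2 (log2 fold change 0.36, adjusted p = 0.0523) and RNF43 (log2 fold change -0.42, adjusted p = 0.0896) did not pass the test. AXIN2 was called by DESeq2 (adjusted p = 0.0326), with RLE size factors (0.0393) and with at least 10 counts in every library (0.0184). ASCL2, not tested, had 0 counts in the 10 livers and 0.248 ± 0.108 CPM in the ileum, at least 1.53-fold higher against the same floor.

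**Figure D5:**
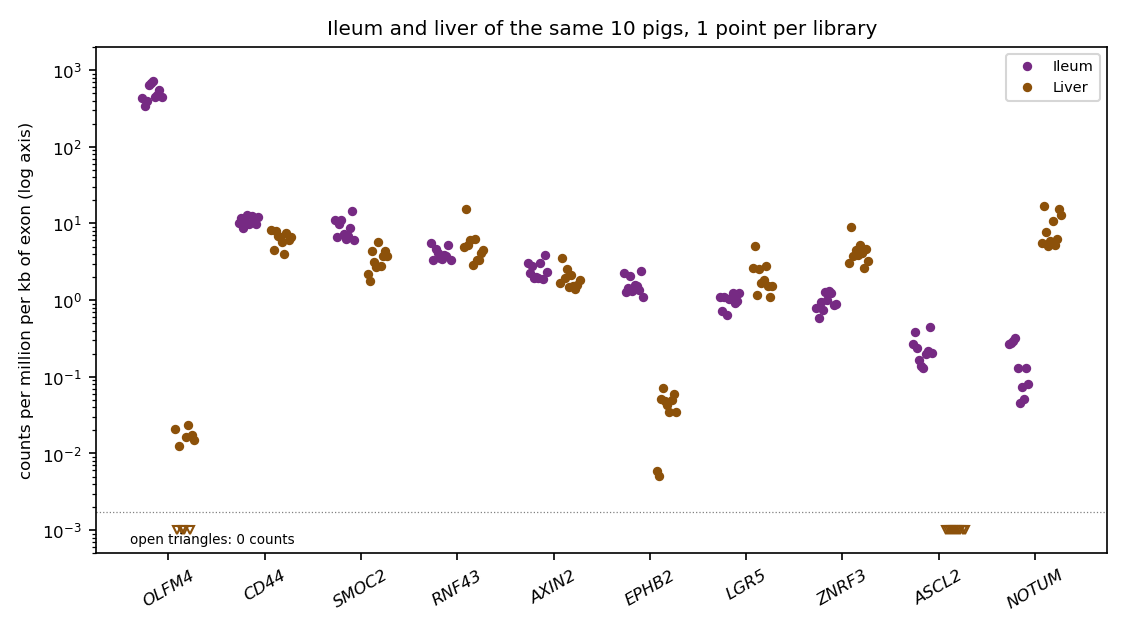
Level of each member per kb of exon in CPM per kb (log axis) in the ileum (purple) and liver (brown) of the same 10 pigs, with 1 point per library and open triangles for libraries with 0 counts. OLFM4 lies highest in the ileum and near 0 in the liver. NOTUM has the lowest mean in the ileum, under ASCL2 in 8 of 10 pigs, and the highest mean in the liver, over CD44 in 5 of 10 pigs.

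Per kb of exon the order of the members thus ended differently in the 2 tissues. In these livers NOTUM was at 9.19 ± 4.53 CPM per kb, followed by CD44 at 6.41 ± 1.39, RNF43 at 5.63 ± 3.68, ZNRF3 at 4.37 ± 1.76, SMOC2 at 3.46 ± 1.17, LGR5 at 2.19 ± 1.20 and AXIN2 at 1.97 ± 0.65 CPM per kb, each overlapping its neighbour, with EPHB2 far below at 0.041 ± 0.022 CPM per kb.

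Whether PFA acted differently on a member in the 2 tissues was tested as an interaction, and no member was called, nor any other gene (0% of 14982, with 739 at an unadjusted p under 0.05). Of the 9 members 5 had a higher value in the ileum, as 46.9% of all genes did. NOTUM had the largest value, with a log2 fold change of PFA against control that was 2.02 lower in the ileum than in the liver of the same pigs (interaction -2.02, 95% interval -3.17 to -0.86, unadjusted p = 0.00163, adjusted p = 0.976, edgeR's quasi-likelihood test). No relation between the ileum and liver levels of a member was detected across the 10 pigs within diets, for any of 8 members (exact permutation test, smallest p = 0.132 for ZNRF3, r = -0.59, adjusted p = 0.573). NOTUM had r = 0.36 (exact permutation p = 0.326, adjusted p = 0.573).

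The genes whose log2 CPM followed 3 of the members most closely were also listed, by Pearson's r over all libraries of a tissue. In the ileum (10 libraries) those most like NOTUM were FXYD3 (r = 0.97), PRRG2 (0.95) and ANPEP (0.92), those most like LGR5 were a gene without a symbol (ENSSSCG00000008211, 0.92), CAPN13 (0.91) and SCN9A (0.91), and those most like AXIN2 were MRI1 (0.92), ACKR1 (0.91) and DMAC2 (0.91). In the liver (23 libraries) those most like NOTUM were ANAPC2 (0.98), LMF2 (0.98) and ENSSSCG00000036102 (0.98), those most like LGR5 were TM6SF1 (0.88), SFXN2 (0.84) and DBT (0.83), and those most like AXIN2 were BRPF1 (0.77), NKD1 (0.75) and ENSSSCG00000002900 (0.75). NKD1, an inhibitor of Dishevelled, was the only gene of these that stood on a list of Wnt targets.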

How the data were processed

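Poly(A) RNA of the ileum (5 control and 5 PFA pigs) and liver (6 pigs for each of 4 diets) was sequenced as stranded libraries. The authors aligned reads to Sscrofa11.1 with STAR 2.6.1d, per the labels, and used HTSeq to count the pairs on each Ensembl gene. The deposited values are raw counts, without normalization, in which the whole-series tables equal the files of the single samples. The annotation release and strand option of the counting are not given in the sources used here. HTSeq rows that name no gene were left out of library sizes. For every 100 pairs counted on genes, 22.8 to 27.9 fell on no gene in the ileum and 7.54 to 23.5 in the liver, C-80 the highest there.

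Counts were analysed with edgeR 4.0.16 (TMM, filterByExpr, quasi-likelihood test, two-sided) in R 4.3.3, with Benjamini-Hochberg adjustment over all genes kept and calls at an adjusted p of at most 0.05. DESeq2 1.42.0, RLE size factors, no filter, at least 10 counts in every library, all 24 liver libraries, the 2 diets alone, a term for the title form, and leaving out each pig were the alternatives. Fits within a title form, without C-80 and P-134, with the GC index as a term, and DESeq2 without a filter were added after seeing the data. Correlations used log2 CPM with a prior count of 2, or 0.5. Intervals cover 95%. p-values measure the spread between pigs of 1 pen per diet. Scripts were tested on simulated counts, with Python 3.11.15, numpy 2.4.6 and scipy 1.17.1.

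The members and lists were chosen with earlier results of these data known. All 10 members are described. From each other list, at most 4 genes were named: those called in the ileum or liver comparisons between diets, or else genes with the smallest p in the ileum, and the 3 genes most like NOTUM, LGR5 and AXIN2 in each tissue. Of the lists' symbols 16 were not matched. The pig number ties the 2 tissues to the same animal, so the fit of both tissues was also made with pig as a block. Over genes, the deviations of the 2 libraries of a pig had correlations from -0.25 to 0.54 (median 0.15). Exon lengths of the members came from RefSeq genes matched by symbol. GC content came from RefSeq genes matched by Ensembl ID, then by symbol, then by synonym or older symbol. It was found for 11370 of 14300 genes tested in the ileum (94.1% of those with a symbol) and 11052 of 13831 in the liver (94.2%). These are 79.5% and 79.9% of all genes tested, short of 80%, and the index describes the genes with a value only.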

Additional observations from a re-analysis of the deposited data

Results flagged for a closer look

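Within groups of 4 to 10 pigs, 52 sets of values were checked for a pig far from the rest, and 6 were found, where chance gives about 1 in 20. NOTUM in the control ileum was at 0.858 CPM in C-110 and at 1.75 to 2.04 CPM in the other 4 controls. In the PFA ileum P-134 had RNF43 at 41.9 CPM (26.3 to 30.1 CPM in the other 4) and ASCL2 at 0.700 CPM (0.199 to 0.329 CPM). In the control liver C-80 had LGR5 at 13.7 CPM (3.01 to 6.99 CPM in the other 5), RNF43 at 56.8 CPM (10.4 to 22.3 CPM) and ZNRF3 at 51.8 CPM (18.1 to 26.1 CPM). All 3 pigs were kept in the fits.

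The liver library of pig 77 (OO + PFA), which no comparison used unless all 24 libraries were fitted, had NOTUM at 73.5 CPM scaled by its total count alone. The highest control on that scale was at 47.7 CPM. Its other members lay at or below the highest control.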

How the results depend on the processing

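Low counts of NOTUM (6 to 46 per ileum library) and ASCL2 limit the precision in the ileum, and 5 pigs per diet limit all of it. NOTUM could not be fitted in the ileum with at least 10 counts in every library. The count of members called in the ileum was 1 with DESeq2 without a filter (NOTUM), and 0 in every other setting run. In the liver the count was 1 across the diets with DESeq2 and with all 24 libraries, 1 for OO against control with DESeq2, RLE factors, at least 10 counts, the title term and the GC term (LGR5 in each), and for OO + PFA against control 1 with DESeq2 (LGR5), 1 with the 2 diets alone (NOTUM) and 3 with all 24 libraries (NOTUM, LGR5 and SMOC2). For the liver, the shares of all genes called above belong to the main fits only, so these counts cannot be set against them. With pig as a replicate block the tissue comparison gave 4 higher and 3 lower members, the interaction 0, and NOTUM a log2 fold change of -5.94, so the block changed no call.

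Signs changed as follows, and the cause was not tested. With DESeq2 and RLE factors AXIN2 for OO + PFA against control was at -0.0038 and -0.0060. With the GC term it was at -0.14, NOTUM for OO at -0.012, AXIN2 and SMOC2 for OO + PFA against OO at -0.056 and -0.082, the liver interaction of NOTUM at -0.10, and in the ileum SMOC2, EPHB2, CD44 and RNF43 at 0.056, 0.12, -0.017 and 0.028. Without C-80 and P-134 OLFM4 and AXIN2 in the ileum were at -0.077 and -0.13 and the tissue interaction of RNF43 at -0.19. Within 1 title form, the sign differed from that of all liver libraries in 20 of 80 values, none of them among the 8 differences with an unadjusted p under 0.05, and no member was called. In the PigLiv libraries these were EPHB2 -0.2531 for PFA against control, AXIN2 0.2693, EPHB2 -0.1785 and RNF43 0.4465 for OO against control, AXIN2 -0.02501 and EPHB2 0.07552 for OO + PFA against OO, EPHB2 -0.103, RNF43 0.1361 and ZNRF3 0.1362 for OO + PFA against control, and NOTUM -0.4165, EPHB2 0.3286 and RNF43 -0.1159 for the interaction. In the PL libraries these were NOTUM -0.4081 and CD44 0.2295 for PFA against control, NOTUM -0.3537 for OO against control, LGR5 -1.14 and SMOC2 -0.1552 for OO + PFA against OO, AXIN2 -0.3476 and CD44 0.4971 for OO + PFA against control, and LGR5 -0.08196 for the interaction. In the ileum, leaving out 1 pig at a time gave OLFM4 from -0.05083 to 0.2332, AXIN2 from -0.0682 to 0.2182, SMOC2 from -0.3891 to 0.0002805, EPHB2 from -0.2646 to 0.07096, CD44 from -0.03812 to 0.1363, RNF43 from -0.2281 to 0.02601. In the liver for PFA against control it gave ZNRF3 from -0.3495 to 0.0279. For OO against control it gave AXIN2 from -0.1072 to 0.1498, RNF43 from -0.3968 to 0.2102. For OO + PFA against OO it gave LGR5 from -0.09734 to 0.3453, AXIN2 from -0.0001715 to 0.1252, SMOC2 from -0.02868 to 0.2864. For OO + PFA against control it gave AXIN2 from -0.04365 to 0.202, EPHB2 from -0.2892 to 0.3878, CD44 from -0.148 to 0.04846, RNF43 from -0.665 to 0.02545, ZNRF3 from -0.2837 to 0.0941. For the liver interaction it gave NOTUM from -0.04726 to 0.5292, CD44 from -0.1921 to 0.007531, RNF43 from -0.0496 to 0.5813. For the tissue interaction it gave EPHB2 from -0.5275 to 0.05072, RNF43 from -0.04656 to 0.8002. The count of members called ran from 0 to 1 across the diets (1 without C-92 or OO-97), for OO against control (1 without C-92, P-95, OO-74, OO-97, OP-79 or OP-137, each time LGR5) and for OO + PFA against control (1 without C-80 or C-92). Across the diets 398 of 13794 genes were called without C-92 and 1450 of 13805 without OO-97. For OO against control 293 of 13794 genes were called without C-92, 467 of 13828 without P-95 and 848 of 13817 without OO-74. There 1325 of 13805 were called without OO-97, 380 of 13894 without OP-79 and 408 of 13901 without OP-137. For OO + PFA against control 703 of 13794 were called without C-80 and 657 of 13794 without C-92. AXIN2 was called between the tissues without C-80, C-100 or P-75 (adjusted p = 0.007939, 0.04346 and 0.02337, edgeR). RNF43 was called lower in the ileum on the joint scale without C-71 or C-110 (adjusted p = 0.04804 and 0.03936, edgeR), and its log2 fold change ran from -0.5286 to -0.08975. Its means scaled within each tissue were higher in the ileum.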
